A study of Drosophila melanogaster with 2 samples.

Results

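The regions described here are the 261 ChIP-seq peak summits of CG31441-eGFP that lay at or downstream of a transcription start site (TSS), out of 6476 summits on the nuclear chromosome arms. A summit is the position within a peak that the deposited list marks as its highest point. The members were chosen by position alone. A summit of the conservative list had to lie at most 500 bp from a protein-coding TSS, on the transcribed side of the nearest one. Summits with TSSs of genes on both strands within 500 bp were left out. Of the 2361 summits within 500 bp of a TSS, 768 had TSSs on both strands and 1332 lay upstream, which leaves the 261 downstream summits, nearest to the TSSs of 243 genes. They made up 16.4% of the summits at such one-direction promoters (exact 95% interval 14.6 to 18.3). All binomial intervals here cover counting error only.

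CG31441 is a predicted zinc-finger protein. The study held 1 group of 2 biological replicates, whole Drosophila melanogaster embryos of 0 to 16 hours from a strain with a transgene that expresses CG31441 joined to enhanced green fluorescent protein (eGFP). Sonicated chromatin was precipitated with an antibody against GFP, so the peaks are those of the tagged protein from all embryonic tissues together. There was no second condition, control libraries were not analysed here, and read depth is unknown. The thresholded list of replicate 1 held 4949 nuclear peaks and that of replicate 2 held 5459, and peak signal is a value given by the authors, on an unstated scale that may differ between lists.

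In Drosophila, the first stretch of a transcribed gene holds the initiator at the TSS, core promoter elements just downstream of it such as the downstream promoter element (DPE), the 5' untranslated region (5' UTR) and often the start of the first intron. RNA polymerase II commonly pauses just downstream of the TSS. First introns near the TSS can hold enhancers, while exons are richer in G and C than introns and intergenic DNA.

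The sequences at the strongest intronic summits show DNA of the low G and C content that was typical of intronic members, whose median was 30.2% with a range from 13.9% to 60.4%. Each window below has 101 bases of the RefSeq dm6 genome, on the strand of the gene and 5′ to 3′, and the 11 bases around the summit are in capitals. They were taken from the strongest intronic members found in both replicates whose windows lay wholly in an intron. scramb2 encodes a phospholipid scramblase, rudhira a protein needed for cell migration in the mouse, and Ptp4E a receptor tyrosine phosphatase.
scramb2, 366 bp downstream of the TSS, chr3L:3046396-3046496, minus strand: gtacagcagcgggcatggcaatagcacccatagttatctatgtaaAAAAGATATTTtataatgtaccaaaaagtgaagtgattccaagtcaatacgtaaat
hng3, 425 bp downstream, chr3L:738874-738974, minus strand: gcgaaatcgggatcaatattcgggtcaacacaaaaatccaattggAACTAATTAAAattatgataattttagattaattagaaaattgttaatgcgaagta
rudhira, 244 bp downstream, chrX:11818531-11818631, plus strand: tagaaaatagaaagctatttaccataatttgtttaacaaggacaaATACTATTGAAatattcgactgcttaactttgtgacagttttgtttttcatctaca
Ptp4E, 393 bp downstream, chrX:4939924-4940024, plus strand: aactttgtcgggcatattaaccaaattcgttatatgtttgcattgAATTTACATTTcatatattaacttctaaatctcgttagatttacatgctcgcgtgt
The G and C content of these windows was 34.7% at scramb2, 27.7% at hng3, 26.7% at rudhira and 30.7% at Ptp4E.

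At strong summits in 5' UTR exons, 30 bases are shown in the same way, with the 11 bases around the summit in capitals. PNPase encodes the mitochondrial RNA-degrading enzyme polynucleotide phosphorylase, Eip75B a nuclear receptor of the ecdysone response, and CAH3 a carbonic anhydrase.
PNPase, 80 bp downstream, chr3R:31404646-31404675, minus strand: aagaaacgtaCAGGGCTTTTAttgtaagat
CG9399, 63 bp downstream, chr3R:9574134-9574163, minus strand: ttatttttatAATTGTGTAATtgtatgtgt
Eip75B, 35 bp downstream, chr3L:17999772-17999801, minus strand: ataataaacaACTTGCCAAAAaaaatccaa
CAH3, 128 bp downstream, chrX:8681365-8681394, plus strand: aattgtacatTCTTTTAGAAGatcccttgg
Within 50 bp of these summits, G and C content was 33.7% at PNPase, 30.7% at CG9399, 24.8% at Eip75B and 32.7% at CAH3, all below the median of 42.6% over the 158 members in 5' UTR exons.

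The downstream summits crowded towards the TSS. Their distance from it had a median of 118 bp (95% interval 91 to 143) and ran from 2 to 495 bp, and 74 of them lay within the first 50 bp. There were 48 members at 50 to 99 bp, 50 at 100 to 199 bp, 24 at 200 to 299 bp, 28 at 300 to 399 bp and 37 at 400 to 500 bp. The upstream summits lay farther out, with a median of 206 bp and only 117 of 1332 within 50 bp. In the plot of signed distances, the share per 25 bp step dropped across the TSS from 3.64% to 1.95% in the conservative list and from 2.17% to 1.31% in replicate 1. In replicate 2 it was 4.19% just upstream and 4.53% just downstream, and it was lower, at 2.98%, only from 25 bp on. In the list of replicate 1, 170 of its 1293 one-direction summits lay downstream (13.1%, 11.4 to 15.1), and in that of replicate 2, 300 of 1478 (20.3%, 18.3 to 22.4), a mean of 16.7% ± 5.06 (SD, n = 2). The intervals of the replicates did not overlap, so the downstream share differed between replicates by more than counting error. Most of the gap lay close to the TSS. Members under 100 bp were 37.1% of the downstream summits of replicate 1 and 53.3% of those of replicate 2, and the median distance was 148 bp in replicate 1 and 88.5 bp in replicate 2.

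**Figure D1:**
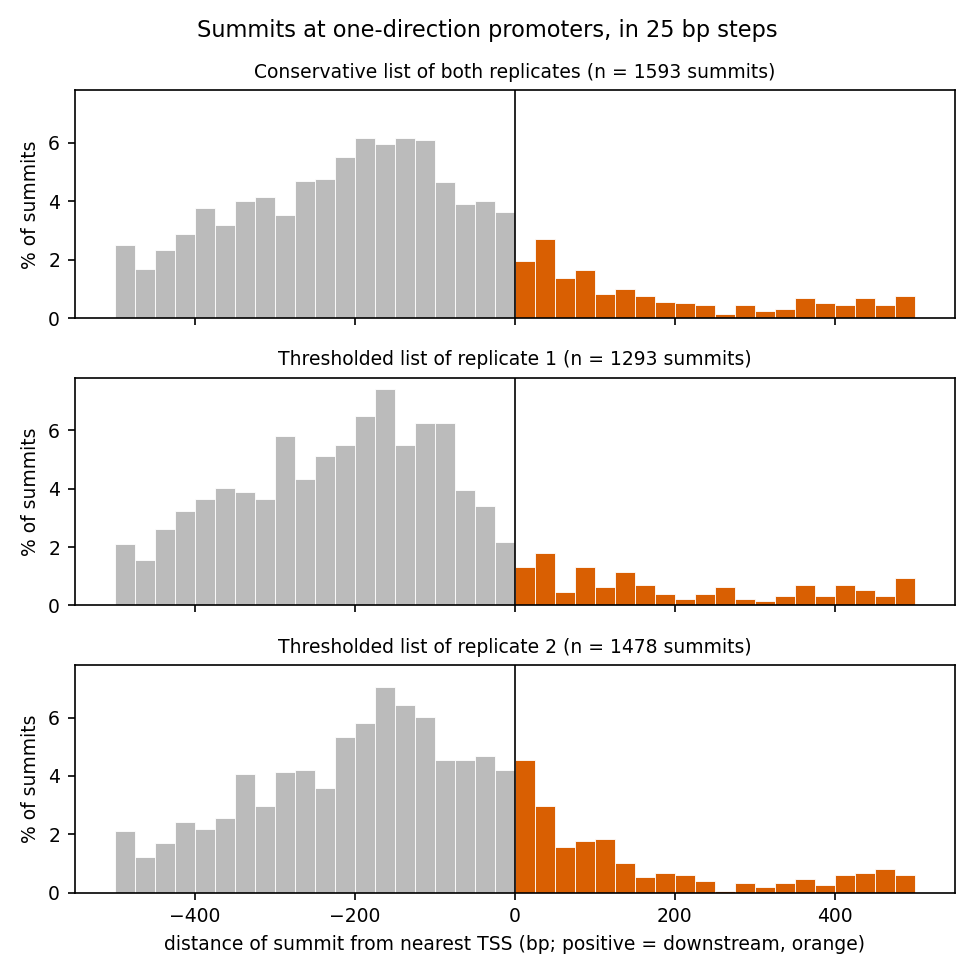
Share of one-direction promoter summits (% of each list) by distance from the nearest TSS in 25 bp steps, for the conservative list and each replicate's thresholded list; positive distances (orange) are downstream. In each list more summits lie upstream than downstream in all, and replicate 2 has a taller downstream shoulder next to the TSS, with 300 of 1478 summits downstream against 170 of 1293 in replicate 1.

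Members at the edges of the rule were as follows. At 2 bp from the TSS, the smallest distance, lay 6 members, led by p24-1 (signal 145.5), CG3529 (145.4) and Snx27 (142.9), and none of these 3 was found in both replicates. The farthest members were CG5171 at 494 bp, with a signal of 236.7, and dbo and CG46339 at 495 bp, with 298.3 and 162.8. Just outside the limit lay summits at CG3919 (502 bp, signal 151.3), the Polycomb group gene ph-p (505 bp, 397.8) and mats (510 bp, 182.7).

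In the conservative list, 124 of the 261 members (47.5%, 41.3 to 53.8) had an interval of exactly 560 bp with the summit at its middle. This was the most common width of the list and held for 28.5% of all nuclear peaks and 27.6% of the upstream ones (25.2 to 30.1). The fixed width was most frequent near the TSS, at 59.0% of members under 100 bp, against 42.1% of upstream summits under 100 bp. Members of this width had a median signal of 117.3 (109.9 to 123.8), none reached a signal of 300, and 9 of 124 lay in thresholded peaks of both replicates. The other 137 members had a median signal of 209.7 (182.6 to 241.6), and 95 of them (69.3%, 60.9 to 76.9) lay in peaks of both replicates. Upstream summits of other widths had a median signal of 263.6 (252.2 to 274.3), and 75.7% of them lay in peaks of both replicates. Without the fixed-width intervals, 12.4% of one-direction summits lay downstream (10.6 to 14.5), 51.1% of these in 5' UTR exons and 44.5% in introns. The fixed-width members lay at a median of 76 bp from the TSS and the others at 150 bp. The replicate lists also had a most common width, 610 bp in replicate 1 and 480 bp in replicate 2, shared by 45.9% and 64.3% of their downstream summits. What sets this width was not tested, and the main results and words that move when these intervals are left out are given with both values, here or with the processing alternatives.

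Downstream summits had lower signal than upstream ones. In whole embryos, binding in fewer cells and weaker binding per cell cannot be told apart. The median was 142.8 (132.3 to 150.6) for the 261 members, 205.5 (195.9 to 215.2) for the 1332 upstream summits and 180.4 for all 6476. The log2 ratio of the downstream to the upstream median was −0.525 in the conservative list, and −0.376 and −0.395 in the lists of replicates 1 and 2, a mean of −0.385 ± 0.0134 (SD, n = 2). Both replicates thus had the lower value downstream. The SD covers only the spread of these 2 ratios. The interval of the downstream median alone put the ratio at −0.446 to −0.21 in replicate 1 and −0.491 to −0.297 in replicate 2. Without the fixed-width intervals the ratio in the conservative list was −0.33. A signal of 300 or more was found at 32 members (12.3%), against 29.4% of upstream summits. Among the 500 strongest nuclear summits, 16 were members (8.12% of the one-direction summits there), while among those ranked 4001 to 6476 there were 154 (25.4%).

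The gap in signal depended on the distance from the TSS. Within 50 bp the medians were 131.9 downstream (117.8 to 143.3) and 147.5 upstream, with intervals that overlapped. At 100 to 199 bp they were 147.7 downstream and 233.7 upstream, and at 200 to 299 bp 148.0 and 243.1. At 400 to 500 bp they came close again, at 176.6 and 179.1. The number of members behind each downstream value was small beyond 200 bp, at 24 to 37 per step.

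**Figure D2:**
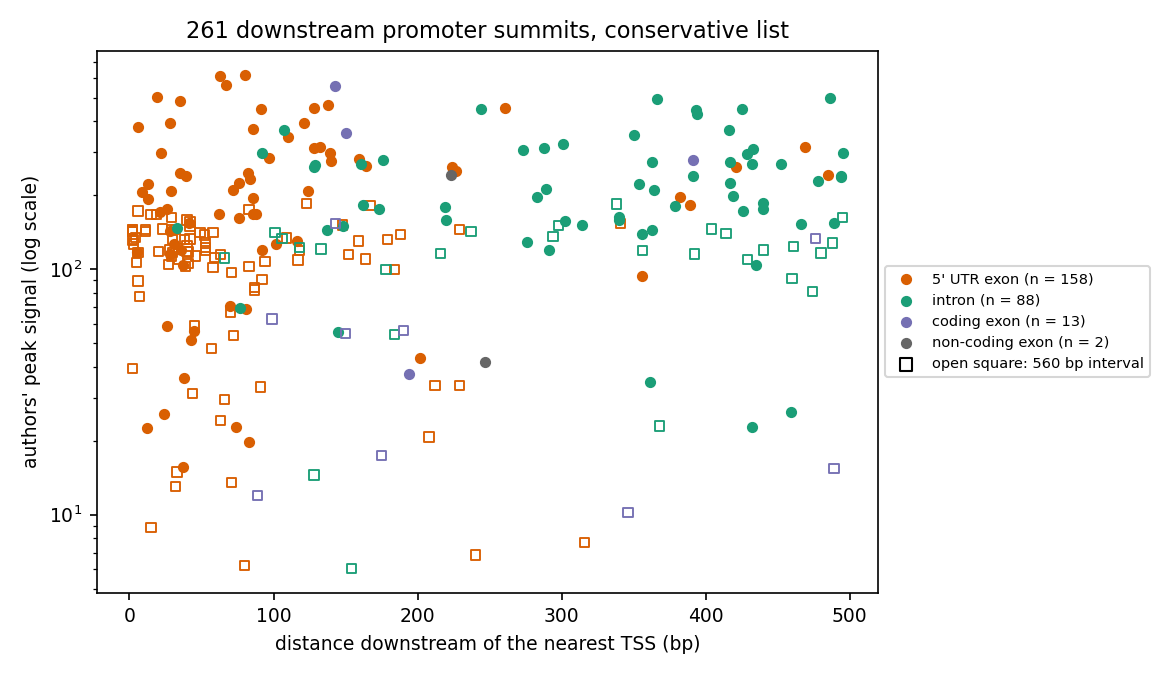
Peak signal of each of the 261 members (authors' value, log scale) by distance downstream of the nearest TSS in bp, coloured by annotation; open squares have the 560 bp interval. Members in 5' UTR exons crowd below 100 bp, intronic members lie mostly beyond it, and the open squares stay below a signal of 300.

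Annotation changed along the transcript. The summit base lay in a 5' UTR exon at 158 members (60.5%, 54.3 to 66.5), in an intron at 88 (33.7%, 28.0 to 39.8), in a coding exon at 13 (4.98%) and in a non-coding exon at 2. Of the 122 members under 100 bp, 116 were in a 5' UTR exon. Of the 139 at 100 bp or more, 84 were in an intron, 42 in a 5' UTR exon and 11 in a coding exon. Exons and introns were thus partly a matter of distance, and the following values are given with that in view. In the replicates' own lists, 54.7% of downstream summits in replicate 1 and 71.7% in replicate 2 were in 5' UTR exons, and 39.4% and 26.0% in introns.

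Intronic members had higher signal than exonic ones. The median signal was 160.7 in introns (146.0 to 185.8), 132.2 in 5' UTR exons (120.2 to 144.7) and 56.3 at the 13 coding exons. The log2 ratio of 5' UTR exon to intron was −0.282 in the conservative list, −0.198 in replicate 1 and −0.373 in replicate 2, a mean of −0.286 ± 0.124 (SD, n = 2). At 100 bp or more the order was not kept, with a median of 167.6 at the 42 members in 5' UTR exons (130.8 to 251.9) and 163.1 at the 84 in introns (146.0 to 197.6). The difference in signal between exon and intron was therefore not seen once near members were left out, within these intervals.

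The strongest members were spread over both kinds. Of the 20 strongest in peaks of both replicates, 12 were in 5' UTR exons, 7 in introns and 1 in a coding exon, with signals from 369.5 to 616.3. PNPase (FBgn0039846) led with 616.3 in the conservative list, 320.1 in replicate 1 and 295.3 in replicate 2. CG9399 (FBgn0037715) had 613.0, with 335.2 and 275.8 in the replicates. At these 2 summits the higher value was in replicate 1, as at 94 of the 104 members in peaks of both replicates.

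GstE13, a glutathione S-transferase gene, had 565.5 with 284.7 and 282.5 in replicates 1 and 2, and its replicate values were nearly equal. Trpm, which encodes a cation channel, had 468.7, with 255.3 and 208.4. CHES-1-like, a forkhead factor gene, had 452.1 at 261 bp, with 267.9 and 172.8. Ptp36E, a tyrosine phosphatase gene, had 394.6, with 240.3 and 153.5, and the large ribosomal subunit gene RpL30 had 378.2 only 6 bp from its TSS, with 183.0 and 200.1. RpL30 was thus one of the few members with the higher value in replicate 2. The peak shared by the TSSs of Cyp6u1, a cytochrome P450 gene, and Ufsp1 had 502.3 at 19 bp, with 261.4 and 235.6. CAH3 had 455.0, with 262.3 and 195.6, and CG45263 had 449.9, with 279.1 and 176.3.

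Among intronic members CG8128 was the strongest, with 498.6 at 486 bp and replicate signals of 272.1 and 238.6. scramb2 had 495.1 with 286.1 and 227.1, and hng3 had 451.3 with 258.5 and 201.1. At rudhira the replicates were nearly equal, with 449.1 in the conservative list and 232.0 and 229.7 in replicates 1 and 2. Ptp4E was equally even, with 446.3, 219.7 and 221.1. Ada2b, which encodes an adaptor of histone acetyltransferase complexes, was the least even of the 20, with 427.5, 309.7 and 129.4.

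The strongest summits in coding exons were at CG6833, with 555.9, and at Mau2, a gene of the cohesin loader, with 357.9. Both shared their intervals, of 1304 and 1189 bp, with a stronger summit, which at CG6833 was upstream of the TSS. The replicate signals, 413.5 and 424.6 at CG6833 and 514.9 and 447.0 at Mau2, therefore belong to the whole peaks. CG44812 had 278.5, with 144.1 and 130.5. Got2, a mitochondrial aspartate aminotransferase gene, had 153.3 and no thresholded peak in either replicate, and Sgs3, a salivary glue protein gene, had 133.4 and a peak in replicate 2 alone. Of the 13 summits in coding exons, 3 lay in peaks of both replicates, so this class rests on few repeated summits.

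Fewer downstream than upstream summits were found in both replicates. Of the 261 members, 136 lay in a thresholded peak of replicate 1 (52.1%, against 66.6% of all 6476 nuclear summits) and 159 in one of replicate 2 (60.9%, against 69.8%). Both replicates held 104 members (39.8%, against 54.6% of all summits), and neither held 70 (26.8%, against 18.2%). Replicate 2 alone held 55 and replicate 1 alone 32. Upstream summits were in both at 60.7%, and their share was above that of the members in each distance step up to 400 bp. Without the fixed-width intervals, 69.3% of members were in both (60.9 to 76.9), an interval that included the share of upstream summits of other widths. In both replicates were 27.0% of members within 50 bp and 56.8% of those at 400 to 500 bp, where upstream summits had 41.9% and 54.0%. In the longer ranked lists, before thresholding, 228 members (87.4%) lay in a peak of both replicates, against 93.1% of all summits. The strongest members in neither thresholded list were at sky (157.7), which encodes a GTPase-activating protein of synaptic vesicles, CG14502 (153.6) and Got2.

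**Figure D3:**
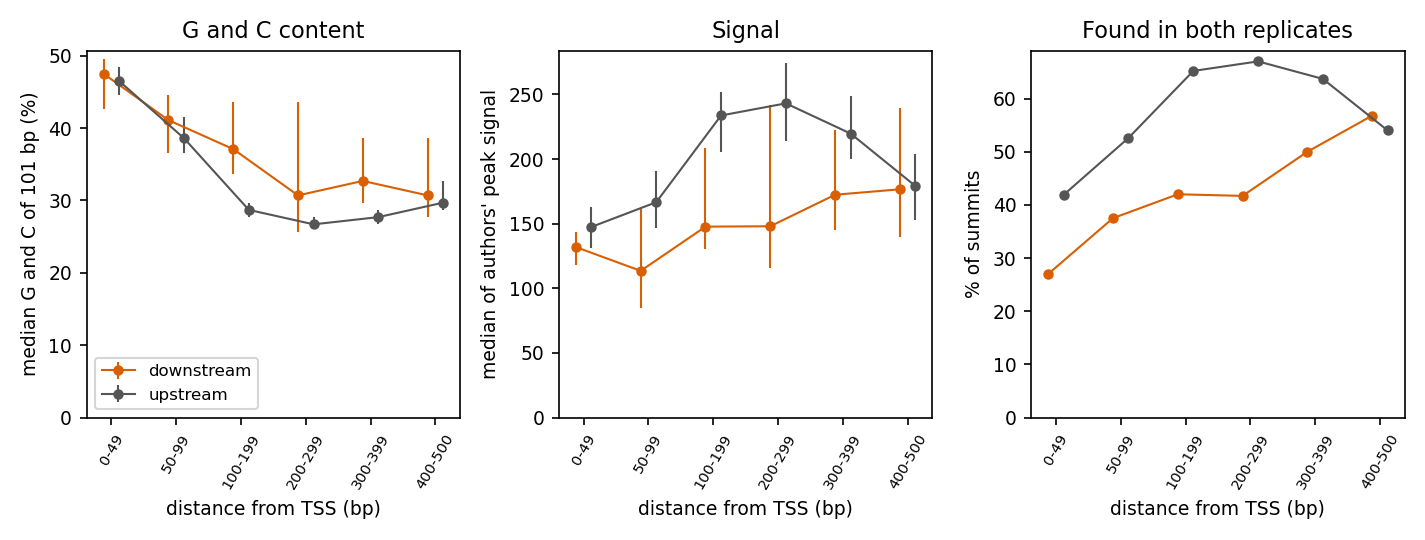
Median G and C content of 101 bp windows (%), median peak signal (authors' value) and share of summits in thresholded peaks of both replicates (%), by distance from the TSS in bp, downstream (orange) and upstream (grey); bars are 95% order-statistic intervals of the medians. G and C content is highest within 50 bp of the TSS on both sides and lower from 200 bp on, while signal and replicate share are lower downstream up to 400 bp.

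At the 104 members with a peak in both replicates, the replicates mostly agreed on the side of the TSS. The replicates' own summits both lay downstream at 86 members (82.7%, 74.0 to 89.4) and both upstream at 9, and they fell on opposite sides at 9 more, 6 of them with replicate 2 downstream. The median distance between the replicates' summits was 28 bp. For 809 upstream summits, both lay upstream at 97.5%. Agreement was partly fixed in advance, since the conservative list that sets the side was derived from both replicates. Upstream summits also lay farther from the TSS, so 82.7% and 97.5% are not shares at matched distance. At the members, replicate 1 signal divided by replicate 2 signal had a median of 1.32 (10th percentile 1.01, 90th 1.9), and it was above 1 at 94 of 104. At the upstream summits the ratio was 1.35, and it describes the lists as a whole.

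**Figure D4:**
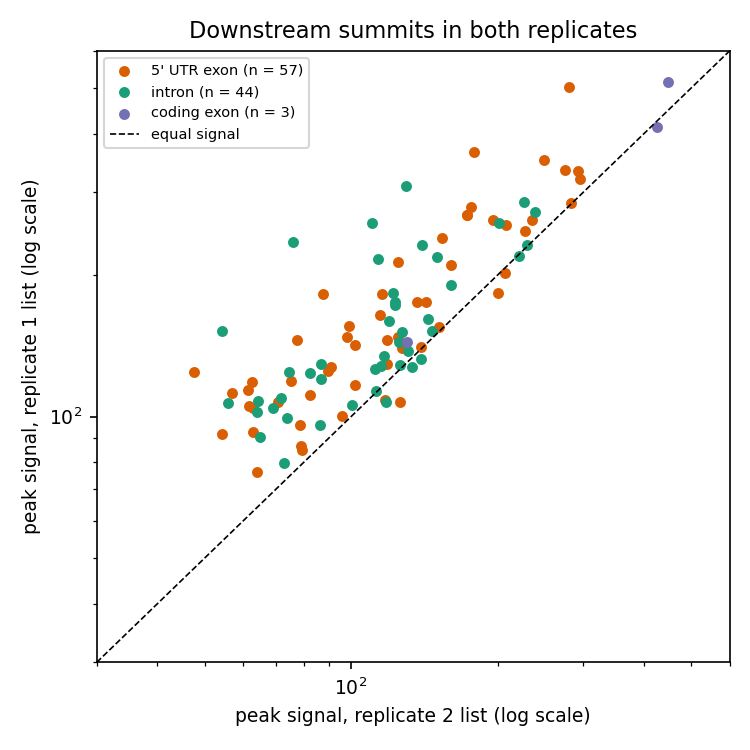
Peak signal of replicate 1 against replicate 2 (authors' values, both axes log) for the 104 members in thresholded peaks of both, coloured by annotation; the dashed line marks equal signal. Replicate 1 lies above the line at 94 of 104 members, in 5' UTR exons and introns alike.

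The DNA at downstream summits held more G and C than at other summits, and this followed the distance and the exons. The median over 101 bp was 38.6% at the members (36.6 to 41.6), 29.7% at upstream summits and 29.7% over all summits. It was 42.6% in 5' UTR exons (40.6 to 45.5), 30.2% in introns (28.7 to 33.7) and 51.5% in coding exons. Close to the TSS the sides matched, with 47.5% downstream and 46.5% upstream within 50 bp. At 100 to 199 bp it was 37.1% downstream and 28.7% upstream. At 100 bp or more, members in introns had 29.7% (28.7 to 33.7) and members in 5' UTR exons 38.1% (32.7 to 43.6).

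As a reference, the first 101 bp of all 19275 distinct TSS positions had a median of 42.6%, and windows 300 bp farther downstream of the members had 43.6%. Windows centred 150 bp upstream of all TSS positions had 36.6%, so start regions in general were also lower in G and C upstream. The members in introns, at 30.2%, were lower in G and C than these references and near the 29.7% of all summits. No reference was limited to introns, so whether intronic members were low for introns was not tested. Members in 5' UTR exons were close to the first 101 bp of all TSSs and to the windows 300 bp farther downstream. The replicates' own lists gave 35.6% and 42.6% at downstream summits and 30.7% in both at intronic ones. The fixed-width members had 43.6% and the others 34.7%. A soft-masked base, which marks repeats, lay under 55 members (21.1%), at 34.1% of intronic and 15.8% of 5' UTR summits, against 28.7% of upstream summits.

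Words of 14 kinds were searched on both strands within 50 bp of the summit, and a match is only a description of letters. The word CGGAC, found in DPE regions of some promoters, was in the window of 27 members (10.3%, 6.93 to 14.7), in 12.7% of windows in 5' UTR exons and in 5.68% in introns. Upstream summits held it in 3.53% (2.60 to 4.66). Within 100 bp of the TSS it was in 15.6% of windows downstream (9.64 to 23.2) and 10.7% upstream (7.18 to 15.2), with overlapping intervals. The first 101 bp of all TSSs held it in 11.3%, and windows 300 bp farther downstream of the members in 9.58%. The share at the members was thus near that of start regions in general. Windows of the same length centred 150 bp upstream of all TSSs held it in 5.48%, so start regions also had less of it upstream. The replicates differed here. In the list of replicate 1, CGGAC was in 4.71% of downstream windows (2.05 to 9.06) and 3.74% of upstream ones, with overlapping intervals. In that of replicate 2 it was in 39 of 300 downstream windows (9.41% to 17.3%) and 4.24% of upstream ones. Within 100 bp the shares were 7.94% downstream and 8.46% upstream in replicate 1. They were 20.6% (14.6 to 27.7) and 9.54% (6.27 to 13.8) in replicate 2. Among summits found in both replicates they were 13.2% and 12.5%. These are the windows around the word, in capitals, at 4 members with it on the gene strand, 30 bases each. The distances printed with them are those of the first base of the word, not of the summit. The stronger CG6833 and CG2811, which also hold it, are not shown. Prx4 encodes a peroxiredoxin and simj a subunit of a chromatin remodelling complex.
Prx4, 82 bp downstream, chr3L:3042791-3042820, plus strand: gactggctgacaCGGACggaacaaggattt
CG4666, 315 bp downstream, chrX:6077198-6077227, minus strand: atagagaaatcaCGGACatatctttggatt
CG31729, 346 bp downstream, chr2L:13290331-13290360, plus strand: gccactgataagCGGACgacggggaatgcc
simj, 35 bp downstream, chr3L:10664762-10664791, plus strand: tctcggatcgttCGGACgtgctacgcggtc

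The repeat CACACA, on either strand, was in the window of 36 members (13.8%, 9.85 to 18.6), against 5.11% of upstream summits (3.99 to 6.43) and 6.28% of all summits. Among the 104 members found in both replicates it was in 8.65% (4.03 to 15.8), and among the upstream summits found in both in 4.33% (3.03 to 5.97), with overlapping intervals. The replicates' own lists gave 11.2% and 12.3% downstream and 4.99% and 5.77% upstream. It was near the same share in 5' UTR exons (14.6%) and introns (12.5%). Within 100 bp of the TSS it was in 13.1% of windows downstream and 7.14% upstream, and farther out in 14.4% and 4.63%. The first 101 bp of all TSSs held it in 8.81%, windows centred 150 bp upstream of all TSSs in 8.02%, and windows 300 bp farther downstream of the members in 16.1%. It is shown in capitals, as CACACA or its reverse complement TGTGTG, at 3 strong members, again with the distance of the word and not of the summit. BNIP3 encodes a mitophagy receptor, Septin2 a septin and Thor the translation repressor 4E-BP.
BNIP3, 246 bp downstream, chr3L:20517041-20517070, minus strand: ggtgtgatcgtaTGTGTGattatatatatg
Septin2, 488 bp downstream, chr3R:20587851-20587880, minus strand: taaaaaccgaggTGTGTGctttttatttgt
Thor, 42 bp downstream, chr2L:3478464-3478493, plus strand: acacatagcagcCACACAagctctatagct

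The TATA box word TATAAA was less frequent at members than at upstream summits. It was in 19.2% of member windows (14.6 to 24.5) and in 27.2% of upstream ones (24.8 to 29.7), with 13.3% in 5' UTR exons and 31.8% in introns. At matched distance the sides were closer, with 9.84% downstream and 10.3% upstream within 100 bp and 27.3% and 31.1% farther out. The first 101 bp of all TSSs held it in 10.5%, and windows centred 150 bp upstream of all TSSs in 18.7%. Start regions in general thus also had the lower share on the downstream side. The GAGA factor word GAGAG was in 13.4% of member windows and 10.5% of upstream ones, and the initiator word TCAGT in 15.7% and 16.4%. Among summits found in both replicates, GAGAG was in 7.69% and 8.41%. The 2 pairs of shares over all members had overlapping intervals, and so did the DRE words over all distances. The DRE is bound by the factor DREF at many housekeeping promoters.

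The DRE core CGATA was in 14.6% of member windows and 17.5% of upstream ones, but close to the TSS the sides differed. Within 100 bp it was in 17.2% of windows downstream (11.0 to 25.1) and 40.5% upstream (34.4 to 46.8), while farther out it was in 12.2% and 12.1%. In the replicates' own lists the shares within 100 bp were 15.9% downstream (7.88 to 27.3) and 35.3% upstream (28.7 to 42.4) in replicate 1, and 18.8% and 30.5% in replicate 2. The share was lower downstream in both, with intervals that overlapped slightly in replicate 2. The longer DRE word TATCGATA was in 1.15% and 2.33% over all distances, and in 1.64% (0.199 to 5.80) and 8.73% (5.55 to 12.9) within 100 bp. Without the fixed-width intervals, CGATA was in 8.76% of member windows and 15.6% of upstream ones, and TATCGATA in 0 of 137 member windows (upper limit 2.66%) and 1.87% of upstream ones.

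Every TATCGATA also counts as a CGATA, and a window can hold several words. Of the other 7 words, member and upstream windows held the motif 1 word GGTCACACT in 1.53% and 0.826%, the E-box CAGCTG in 3.83% and 4.05% and the core of the Zelda site CAGGTA in 1.53% and 1.58%. They held the Pho core GCCAT in 13% and 11.6%, the run of A bases AAAAAAAA in 6.51% and 7.88%, the octamer-like word ATTTGCAT in 1.92% and 1.28% and the GATA factor word GATAAG in 3.45% and 5.41%, and these 7 pairs also overlapped. In the first 101 bp of all TSSs the shares were 24.9% for TCAGT, 16.3% for CGATA, 11.6% for GAGAG, 15.8% for GCCAT and 1.08% for TATCGATA. They were 1.88% for GGTCACACT, 5.84% for CAGCTG, 2.0% for CAGGTA, 5.89% for AAAAAAAA, 0.783% for ATTTGCAT and 4.01% for GATAAG.

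The place of the core promoter was measured from the nearest TSS of each summit, and a TSS nearest to more than 1 summit was counted for each. TATAAA began 35 to 25 bp upstream for 12 of the 261 members (4.60%, 2.40 to 7.89). The shares were 2.93% for the TSSs nearest to upstream summits (2.09 to 3.98) and 5.53% for all TSSs. For members under 100 bp the TATAAA share was 8.20% (4.0 to 14.6), at 10 of 122. The initiator word TCAGT began between 3 bp upstream and 1 bp downstream at 29 (11.1%, 7.57 to 15.6), against 11.9% of the TSSs nearest to upstream summits and 7.84% of all. CGGAC began 24 to 34 bp downstream at 10 (3.83%, 1.85 to 6.93), against 3.68% and 1.72%. Over all members, the TSSs of downstream and of upstream summits thus had like shares of the initiator and of CGGAC. For members under 100 bp the shares were 8.20% for TCAGT (4.0 to 14.6) and 3.28% for CGGAC (0.9 to 8.18). These wide intervals include the shares at upstream summits, and that of TCAGT also includes the 7.84% of all TSSs.

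**Figure D5:**
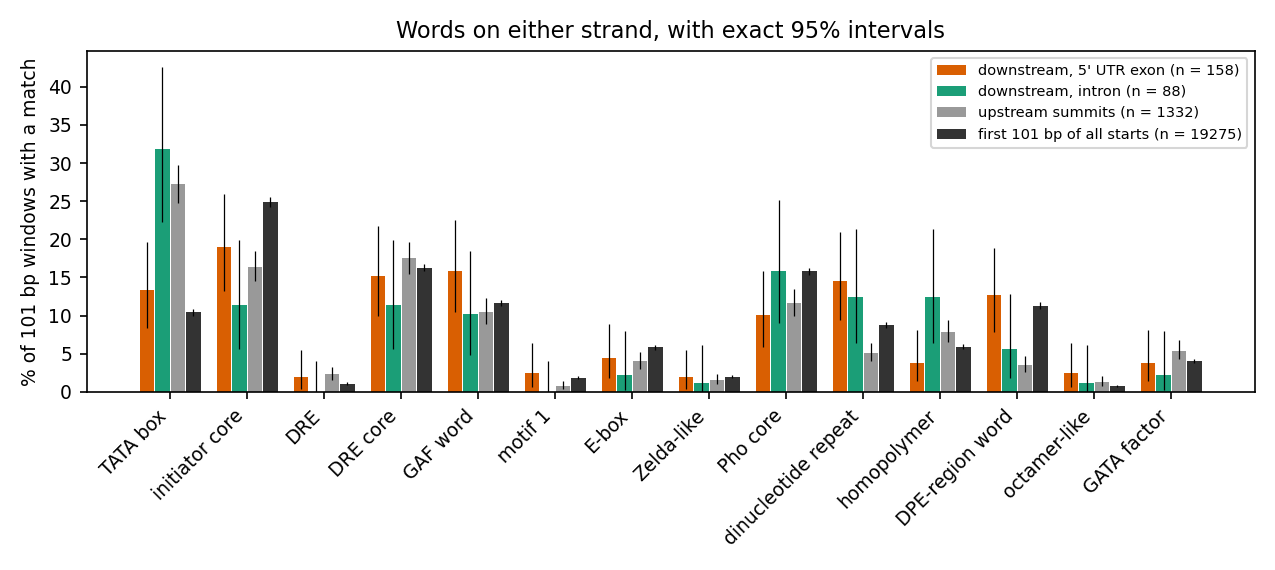
Share of 101 bp windows (%) with each of the 14 words on either strand, for members in 5' UTR exons, members in introns, upstream summits and the first 101 bp of all TSSs; bars are exact 95% intervals. The TATA box word is in 13.3% of windows at members in 5' UTR exons and 10.5% of start regions. It is in 31.8% at intronic members, 27.2% at upstream summits and 27.7% at all summits. Its share also changes with distance, at 10.3% of upstream windows under 100 bp and 31.1% farther out.

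Many downstream summits were at genes with more than 1 annotated TSS, near the summit or elsewhere in the gene. A gene with more TSSs has more windows that the rule can pick, and how far this sets the following shares was not tested. Of the 243 genes, 177 (72.8%, 66.8 to 78.3) had more than 1 annotated TSS, against 54.2% of the genes with an upstream summit and 26.5% of all 13968 protein-coding genes. A later TSS of the same gene lay within 500 bp at 54 members (20.7%), so that a summit downstream of its nearest TSS was also upstream of another, and one lay anywhere farther along the gene at 141 (54.0%). Such a TSS within 500 bp was annotated at PNPase, CG9399, Hsp83, RpL30 and Hr78. The interval of the peak covered the nearest TSS at 171 members (65.5%), with 91.1% in 5' UTR exons and 21.6% in introns, against 50.2% of upstream peaks. Of the 243 genes, 80 (32.9%) also had an upstream summit, and those 80 were 7.20% of the 1111 genes with an upstream summit.

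At 18 genes a pair of downstream summits was found, and at 9 of them the summits were 200 bp apart, give or take 5 bp. Ada2b had a signal of 427.5 at 394 bp and 37.3 at 194 bp, and CG2961 had 260.8 at 224 bp and 25.8 at 24 bp. Brd7-9 had 211.5 at 289 bp and 15.4 at 489 bp, and ari-2 had 108.9 at 117 bp and 7.7 at 316 bp. The weaker summit had a signal under 50 in 8 of the 9 pairs. The exception was CHES-1-like, with 452.1 at 261 bp and 168.6 at 62 bp. Over all members, 35 (13.4%, 9.52 to 18.2) lay at that spacing from a stronger summit, against 8.63% of upstream summits (7.18 to 10.3). Of the 35 members with a signal under 50, 18 did so, and 23 had the fixed width of 560 bp.

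Downstream summits were few in each gene list, and some lists had none. Over all 13968 protein-coding genes, 249 (1.78%) had a downstream summit at 1 of their TSSs, including genes that share a TSS. In the list of cytosolic ribosomal protein genes it was 7 of 92 (7.61%). Upstream summits were also frequent in that list, at 27 of 92 (29.3%), against 8.14% of all genes. RpL30 (378.2), RpL38 (171.6), RpS30 (166.6) and RpS15 (126.8) were in peaks of both replicates, all within 31 bp of the TSS. RpS15Aa (120.2) and RpLP2 (71.0) were in replicate 2 alone and RpL23 (69.7) in neither. All but RpL23, which was intronic, were in 5' UTR exons.

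Of 51 chromatin and insulator genes, 6 had a downstream summit (11.8%, against 1.78% of all genes) and 5 an upstream one (9.80%, against 8.14% of all genes). Mau2 had 357.9, Trl, which encodes GAGA factor, 275.1, and the Polycomb group gene ph-d 208.5, each in both replicates. The insulator gene CTCF had 145.2 in replicate 2 alone, the Polycomb group gene Su(z)2 117.5 in neither, and the boundary factor gene BEAF-32 56.3 in replicate 1 alone. Of 19 nuclear receptor and ecdysone genes, 2 had a downstream summit and 6 (31.6%) an upstream one. Eip75B had 485.9 in the conservative list with 248.1 and 228.1 in the replicates, and Hr78 had 369.5 with 218.7 and 150.1. Both were found in both replicates.

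Of 27 cytoskeleton and adhesion genes, 4 had a downstream summit and 8 (29.6%) an upstream one. The junction scaffold gene dlg1 had 268.1 and the myosin light chain gene sqh 265.1, both in introns and in both replicates. alphaTub84B had 167.6 in replicate 2 alone and the actin gene Act5C 89.6 in neither. The neural adhesion gene Nrx-1 (313.9, both replicates) and Fas2 (130.4, replicate 2 alone) were 2 of 32 neural genes, of which 10 (31.2%) had an upstream summit. The integrin gene if (119.7, neither) and the muscle factor gene Mef2 (102.7, replicate 2 alone) were 2 of 22 muscle genes, of which 7 (31.8%) had an upstream summit.

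Hsp83, the Hsp90 gene, was 1 of 20 heat shock genes, with 395.8 in the conservative list and 201.7 and 207.3 in the replicates. aop, which encodes a repressor of EGFR signalling, was 1 of 38 signalling genes (132.3, replicate 2 alone), and the germ line gene bgcn 1 of 27 (298.7, replicate 2 alone). There were 0 downstream summits among 73 mitochondrial ribosomal protein genes, 48 proteasome genes, 84 translation factor and aminoacyl-tRNA synthetase genes, 63 genes of polymerase II and general factors, 52 patterning genes and 35 cell cycle genes. The share over all genes was 1.78%, and 0 is near that share in lists of this size. The rule also left out summits at promoters with TSSs on both strands. In the order of these lists, 22, 9, 11, 16, 0 and 5 genes had such a summit, against 1308 of all 13968 genes. With counts this small, each list describes only its named members.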

How the data were processed

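The 2 replicates of the group were taken from the labels. The authors deposited narrowPeak lists on dm6, called per replicate and on both replicates, per the readme deposited with the samples. No aligner or peak caller is named (not given in the sources used here). The signal is the value deposited by the authors for each peak, on an unstated scale, so ratios between lists describe the lists. In the conservative list of 6501 peaks, 8 had their summit at the end of the interval. Another 16 value columns of the ranked series lists were tied to no replicate and not used.

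Genes came from Ensembl release 115 (BDGP 6.54), with 13968 protein-coding genes and 19630 TSSs, and sequence and masking from RefSeq dm6. Coordinates are 1-based. A summit in a replicate means that it lay in a peak of that replicate's thresholded list. Shares have exact (Clopper-Pearson) 95% intervals and medians order-statistic ones. Peaks are not replicates, and no p-values were computed. Read depth is unknown.

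Named genes were the 20 strongest members in both replicates, the 3 nearest and farthest and the 3 just outside the limit, the 4 strongest per gene list, the 3 strongest in neither replicate and up to 5 in coding sequence. The other members of the 2 longest list counts, the paired summits and the genes at printed words were chosen after their values were seen. The members and the 15 gene lists were chosen with earlier results of these data known. The steps were tested on simulated data. Tools were scipy 1.17.1, pandas 2.3.3, matplotlib 3.10.9 and numpy 2.4.6 on Python 3.11.15.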

Additional observations from a re-analysis of the deposited data

How the results depend on the processing

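Of 122 recomputed values of the main results, 83 moved by less than their interval or 1.5 times and 39 moved further. Of 224 for single words, 194 and 30 did so. In all, 0 changed direction, but only the log2 ratio has a sign, so counts, shares and distances could not. The values with RefSeq TSSs repeated those with Ensembl TSSs and are among the 83. No paired analysis was possible because the study has 1 group. Leaving out a replicate means using the other's own list. The number of downstream summits then ran from 170 to 300, their share from 13.1% to 20.3%, the median distance from 88.5 to 148 bp, the intron share from 26.0% to 39.4%, the 5' UTR share from 54.7% to 71.7%, the log2 signal ratio from −0.395 to −0.376 and G and C from 35.6% to 42.6%. The less strict list gave a log2 ratio of −0.438, and leaving out masked summits −0.447. With 1 TSS per gene, the most upstream, the downstream share was 18.8%, with 25.3% in introns and 69.7% in 5' UTR exons. A limit of 250 bp, which keeps only near summits, gave 18.8%, a median of 72 bp, 14.4% in introns, 79.7% in 5' UTR exons and 42.6% G and C. Keeping promoters with TSSs on both strands gave 408 summits, a median of 84.5 bp, 27.2% in introns and 66.9% in 5' UTR exons. Alternatives chosen after seeing the data were these. Summits in both replicates only gave 104, a downstream share of 11.4%, 149 bp, 42.3% in introns, a log2 ratio of −0.248 and 34.7% G and C. Without the 560 bp intervals there were 137, a share of 12.4%, 150 bp, 44.5% in introns, 51.1% in 5' UTR exons, 69.3% in both replicates, −0.33 and 34.7%. Without summits beside a stronger one, no main value moved further than its interval. Apart from the narrower limit, the cause was not tested. Unknown depth leaves absent peaks undecided.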
